A study of Mus musculus with 20 samples.

Results

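Hindlimbs were compared with forelimbs in mouse embryos that lacked the transcription factor Lmx1b, at embryonic day 13.5 (E13.5). The comparison used 10 of the 20 arrays of the series, namely the 5 arrays of Lmx1b -/- hindlimbs and the 5 arrays of Lmx1b -/- forelimbs, as the descriptions of the samples name them. Every array held RNA of 1 whole limb, left or right, from an embryo of the 129Sv strain. The other 10 arrays were 5 forelimbs and 5 hindlimbs of wild-type 129Sv embryos of the same day, and they served here for the same comparison with Lmx1b present. The labels call the mutant a loss-of-function genotype, and name no Cre driver or tissue restriction. The titles number the arrays as biological replicates, forelimbs 1 to 5 and hindlimbs 6 to 10 in each genotype, and separate embryos for these limbs are not stated. The p-values therefore measure the spread between these arrays.

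Forelimbs and hindlimbs grow from buds with the same axes and tissues, and differ in the transcription factors that set limb type. Tbx5 is the T-box factor of the forelimb field, while Isl1, Pitx1 and Tbx4 act in the hindlimb field, and Hox genes with higher numbers are used towards the tail end of the trunk, where the hindlimb forms. The hindlimb bud also forms somewhat later than the forelimb bud. Lmx1b, a LIM-homeodomain factor of dorsal limb mesenchyme, sets the dorsal side of both limbs.

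Some sequences of genes in the comparison are shown first. Mir196a-1, a microRNA gene between Hoxb9 and Hoxb13, was 1 of the genes that differed, and it shares its 5p product with Mir196a-2, which lies between Hoxc9 and Hoxc10. The array measured each gene with its own probe set. RefSeq (GRCm38.p6) places the 5p product at chr11:96265187-96265208 on the plus strand for Mir196a-1, at chr15:102973365-102973386 on the plus strand for Mir196a-2, and at chr6:52230129-52230150 on the minus strand for Mir196b of the HoxA cluster. Capitals mark the seed, bases 2 to 8, which is the same in all 3 genes.
mmu-miR-196a-5p: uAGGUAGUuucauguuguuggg
mmu-miR-196b-5p: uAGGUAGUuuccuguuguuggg

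The next sequences are windows of 300 bases, from 250 bases before to 50 after the start of each gene (RefSeq, GRCm38.p6, printed 5′ to 3′ on the gene's strand). They belong to Isl1 and Tbx4, hindlimb factors that were higher in hindlimbs together with Pitx1, and to Gabra2 and Gabra4, close neighbours on chromosome 5 that were also both higher. Capitals mark the letters TAATCC, a core recognised by Pitx-type homeodomains, searched on both strands.
Isl1, chr13:116309639-116309938, minus strand: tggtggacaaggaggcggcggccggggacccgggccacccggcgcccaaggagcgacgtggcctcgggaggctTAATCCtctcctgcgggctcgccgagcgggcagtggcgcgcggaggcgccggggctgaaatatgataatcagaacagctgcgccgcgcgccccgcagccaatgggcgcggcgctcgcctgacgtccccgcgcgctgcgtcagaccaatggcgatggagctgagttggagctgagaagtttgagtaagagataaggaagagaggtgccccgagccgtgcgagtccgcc
Tbx4, chr11:85896515-85896814, plus strand: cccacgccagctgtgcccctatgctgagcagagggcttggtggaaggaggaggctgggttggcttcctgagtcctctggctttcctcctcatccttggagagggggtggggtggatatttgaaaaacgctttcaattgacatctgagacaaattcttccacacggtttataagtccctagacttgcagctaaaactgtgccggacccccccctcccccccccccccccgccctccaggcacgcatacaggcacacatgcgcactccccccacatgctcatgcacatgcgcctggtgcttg
Gabra2, chr5:71095800-71096099, minus strand: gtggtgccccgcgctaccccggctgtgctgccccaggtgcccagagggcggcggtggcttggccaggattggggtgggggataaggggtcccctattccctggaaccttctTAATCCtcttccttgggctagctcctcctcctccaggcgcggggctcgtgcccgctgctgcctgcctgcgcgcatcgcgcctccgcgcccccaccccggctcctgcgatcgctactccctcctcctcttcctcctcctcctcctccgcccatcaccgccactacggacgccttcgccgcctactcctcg
Gabra4, chr5:71658259-71658558, minus strand: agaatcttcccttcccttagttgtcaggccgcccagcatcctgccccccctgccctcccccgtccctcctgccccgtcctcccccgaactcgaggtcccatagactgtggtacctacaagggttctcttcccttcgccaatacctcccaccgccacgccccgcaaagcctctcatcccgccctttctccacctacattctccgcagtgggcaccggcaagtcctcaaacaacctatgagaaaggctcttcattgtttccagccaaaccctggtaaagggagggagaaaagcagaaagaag

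TAATCC stood in 2320 of all 32851 windows of this length, or 7.06%. Of the 15 genes higher in hindlimbs, 9 had a window, and those of Isl1 and Gabra2 held it. Of the 29 genes lower in hindlimbs, 17 had a window, and that of Ctso held it. A match is a description of the letters and not a binding site. The windows of Tbx4 and Gabra4 showed no match.

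Levels are given as log2 of the normalized intensity that the authors deposited, so a difference of 1 is 2-fold, and a level is compared only between arrays. Lmx1b was examined first, as a check of the labels. It was 5.60, 5.73, 5.72, 5.82 and 5.75 in Lmx1b -/- forelimbs 1 to 5 and 5.88, 5.81, 6.09, 5.84 and 5.96 in hindlimbs 6 to 10. Every one of these values lay below every wild-type value, which ran from 6.14 to 6.52. Where the probes lie relative to the deleted part was not analysed here, so the signal that remained cannot be read as intact transcript. The limb-type difference of Lmx1b was 0.19 (SE 0.071, limma adjusted p = 0.443) within the mutants. The defining markers of limb mesenchyme Prrx1, Prrx2, Msx1, Twist1 and Shox2 had levels of 5.93 to 9.92 over the Lmx1b -/- arrays, and none of the 5 passed the test. The Y-linked genes Kdm5d, Uty and Eif2s3y and the X-inactivation RNA Xist marked 2 male and 3 female forelimbs and 3 male and 2 female hindlimbs among the mutants. All 5 wild-type forelimbs were male. Forelimb 5 and hindlimb 6 lay farthest from the means of their groups, with median deviations of 0.117 and 0.109 on the log2 scale.

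In the limbs without Lmx1b, 44 of 19936 genes (0.221%) differed between hindlimb and forelimb at an adjusted p under 0.05 (limma, Benjamini-Hochberg adjustment over all genes). Of these, 15 were higher in hindlimbs (0.0752% of the genes tested) and 29 were lower (0.145%). The sizes ran from -0.40 for Ctso and 0.42 for Tafa4, the smallest in each direction, to -4.08 for Tbx5 and 2.92 for Pitx1, the largest. In 30 of the 44 the difference was at least 1.5-fold. For all 44 the 5 hindlimbs and the 5 forelimbs did not overlap, which was true of 1.73% of all genes. The overlap and the calls come from the same values, so this describes the called genes and adds no support. With no overlap, the sign of each was also fixed within the male and within the female mutant arrays (55.7% of all genes kept 1 sign there), so nothing is read from it. The mean log2 level was under 5 for 14 of them, and 11250 of the 19936 genes had a mean level of at least 5. The array medians over all probe sets ran from 4.84 to 4.99. An unadjusted p under 0.05 was reached by 1696 genes. In whole limbs, fewer cells of a type and less RNA per cell cannot be told apart.

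**Figure D1:**
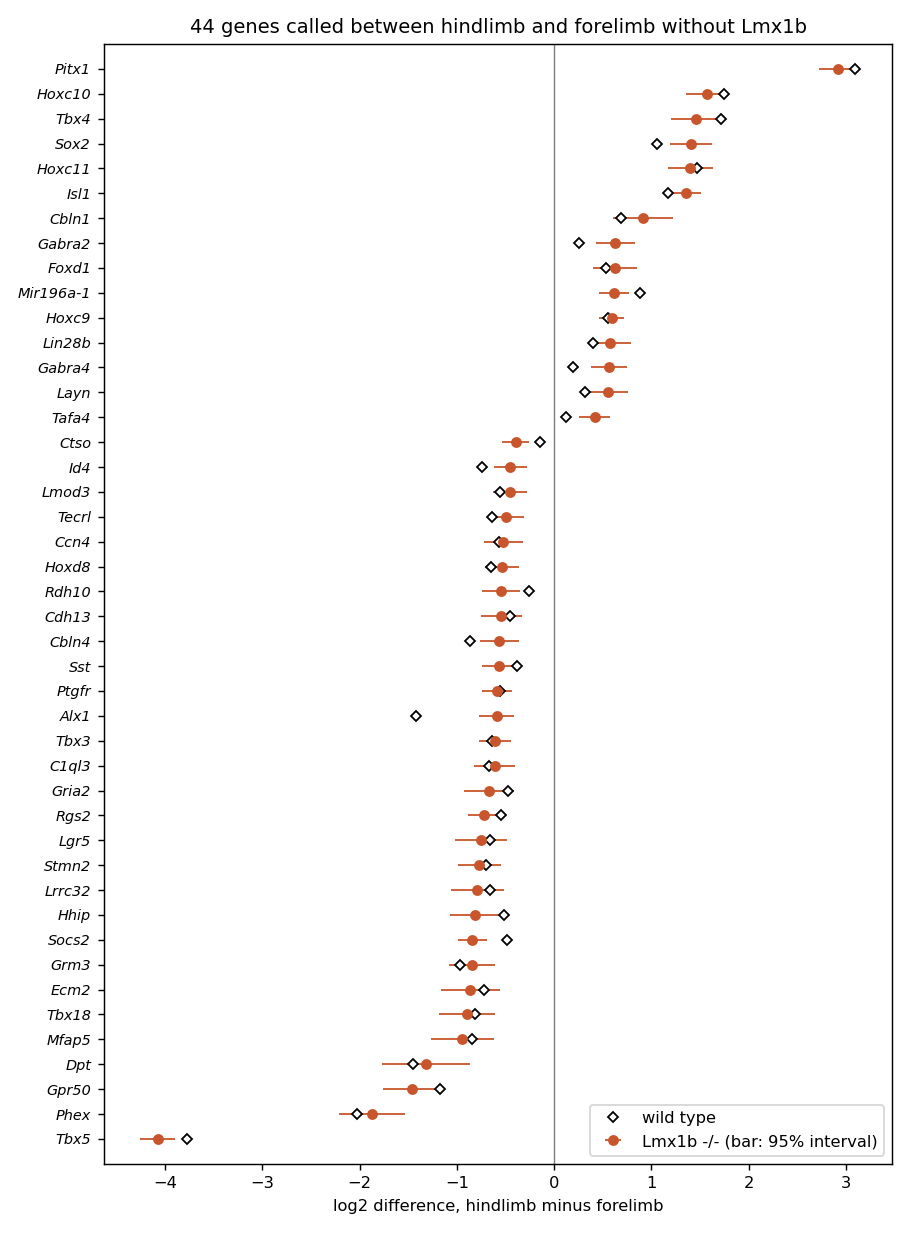
Log2 difference, hindlimb minus forelimb, of the 44 genes called in Lmx1b -/- limbs (filled circles; bar, 95% interval; n = 5 arrays per group) and of the same genes in wild-type limbs (diamonds). Tbx5 at -4.08 and Pitx1 at 2.92 lie farthest from 0, and every diamond lies on the same side of 0 as its circle.

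The limb-type transcription factors kept their opposite sides without Lmx1b, and Tbx5 and Pitx1 had the largest differences of all 44 genes. Pitx1, the paired-type homeodomain factor of the hindlimb, stood at 5.51, 5.27, 5.75, 5.54 and 5.52 in forelimbs 1 to 5 and at 8.22, 8.51, 8.48, 8.47 and 8.49 in hindlimbs 6 to 10. Hindlimb 6 was the lowest of the hindlimbs, and the groups were separated by a wide gap. The difference was 2.92 (SE 0.090, limma adjusted p = 6.38e-10), or 7.55-fold. Tbx4, the hindlimb T-box factor, had values of 6.34, 5.88, 6.10, 6.40 and 6.30 in forelimbs and 7.28, 7.80, 7.80, 7.74 and 7.71 in hindlimbs. Hindlimb 6 was again lower than the other hindlimbs but still above every forelimb. Tbx4 differed by 1.46 (SE 0.12, limma adjusted p = 4.27e-05), or 2.76-fold. Isl1, a LIM-homeodomain factor that acts early in the hindlimb field, was at 4.36, 4.54, 4.37, 4.42 and 4.47 in forelimbs and 5.71, 5.98, 5.68, 5.83 and 5.77 in hindlimbs. The spread within each group was small against the gap between them. Its difference was 1.36 (SE 0.071, limma adjusted p = 4e-07).

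Tbx5, the forelimb T-box factor, stood at 8.89, 8.65, 8.74, 8.93 and 8.56 in forelimbs 1 to 5 and at 4.60, 4.73, 4.75, 4.52 and 4.78 in hindlimbs 6 to 10. Mean levels were 8.75 ± 0.158 (SD, n = 5) in forelimbs and 4.68 ± 0.111 (SD, n = 5) in hindlimbs, a difference of -4.08 (SE 0.085) or 16.9-fold (limma, adjusted p = 8.45e-12). None of the 4 factors changed its limb-type difference between genotypes at the threshold. The difference in Lmx1b -/- minus that in wild type was -0.17 (95% interval -0.43 to 0.08) for Pitx1, -0.25 (95% interval -0.59 to 0.09) for Tbx4, 0.19 (95% interval -0.13 to 0.50) for Isl1 and -0.30 (95% interval -0.64 to 0.04) for Tbx5. Pitx1, Tbx4, Isl1 and Tbx5 kept their calls without any single array and under a covariate of muscle genes.

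**Figure D2:**
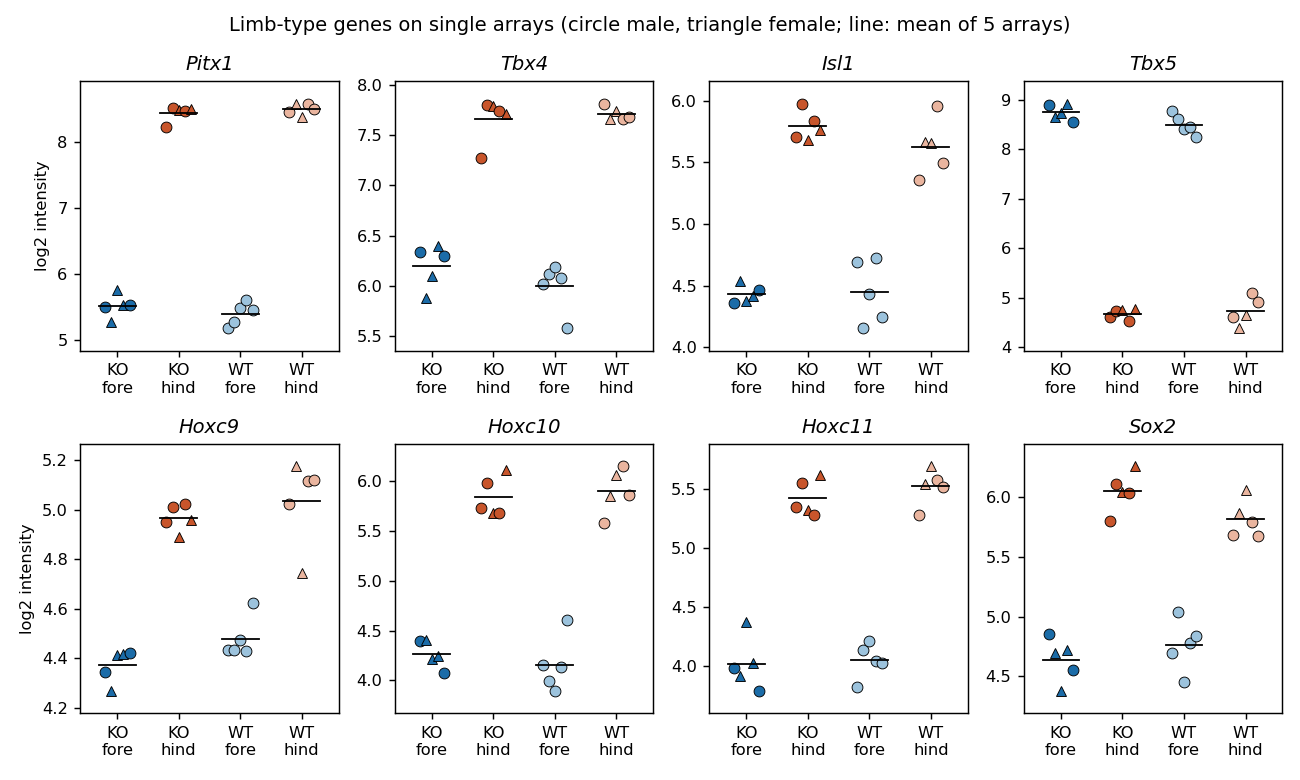
Log2 intensity of Pitx1, Tbx4, Isl1, Tbx5, Hoxc9, Hoxc10, Hoxc11 and Sox2 on every array of the 4 groups (circles male, triangles female; line, mean of 5 arrays). Within each genotype the hindlimb and forelimb arrays of each gene lie apart, and Pitx1 goes from a mean of 5.52 in Lmx1b -/- forelimbs to 8.43 in hindlimbs.

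Among the 37 measured Hox genes, 3 neighbours of the HoxC cluster were higher in hindlimbs and 1 gene of the HoxD cluster was lower. The shares over all genes were 0.0752% higher and 0.145% lower. Hox genes encode homeodomain factors whose clusters are read out in order along the body axis. Hoxc10 was at 4.40, 4.41, 4.22, 4.24 and 4.07 in forelimbs and at 5.73, 5.98, 5.68, 5.68 and 6.11 in hindlimbs. The lowest hindlimb lay more than 1 log2 unit above the highest forelimb. Its difference was 1.57 (SE 0.10, limma adjusted p = 3.38e-06), or 2.97-fold. Hoxc11 had values of 3.99, 3.92, 4.37, 4.03 and 3.79 in forelimbs and 5.34, 5.55, 5.32, 5.28 and 5.62 in hindlimbs. Forelimb 3 was the highest forelimb and still clear of the hindlimbs. Hoxc11 differed by 1.40 (SE 0.11, limma adjusted p = 1.84e-05). Hoxc9 stood at 4.35, 4.27, 4.41, 4.42 and 4.42 in forelimbs and 4.95, 5.01, 4.89, 5.02 and 4.96 in hindlimbs, a smaller step with little spread, of 0.59 (SE 0.060, limma adjusted p = 0.000333). The genes on either side did not pass the test: Hoxc8 differed by -0.11 (SE 0.13) and Hoxc12 by 0.02 (SE 0.11).

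At the low-numbered end of HoxC the sign was the opposite, without a call. Hoxc4, Hoxc5 and Hoxc6 differed by -0.43 (SE 0.26), -1.04 (SE 0.33) and -0.45 (SE 0.12), with adjusted p of 0.739, 0.337 and 0.23. The forelimbs were uneven there. Hoxc5 was at 4.80, 5.88, 6.37, 4.25 and 4.44 in forelimbs 1 to 5 and at 3.94, 4.08, 4.16, 4.10 and 4.27 in hindlimbs, so forelimbs 2 and 3 stood far above the other forelimbs. The same 2 arrays were the highest forelimbs for Hoxc4, Hoxc6 and Hoxc8 and for Hoxb2 of the HoxB cluster. These Hox genes outside the called ones were chosen after their values were seen.

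In the HoxD cluster, Hoxd8 was at 6.46, 6.47, 6.54, 6.65 and 6.25 in forelimbs and 5.90, 5.95, 5.79, 6.06 and 5.97 in hindlimbs. No hindlimb reached the lowest forelimb, number 5. Hoxd8 differed by -0.54 (SE 0.081, limma adjusted p = 0.0129), and without hindlimb 8 its adjusted p was 0.0515. Its nearest measured neighbours, Hoxd9 and the antisense gene Hoxd3os1, differed in sign and did not pass the test, at -0.49 (SE 0.12) and 0.18 (SE 0.12). Of the 9 genes of the cluster 6 were below 0 and 3 above. Hoxd10 differed by -0.68 (SE 0.13), Hoxd11 by -0.45 (SE 0.10) and Hoxd1, at the other end, by 0.33 (SE 0.070). Their adjusted p were 0.0602, 0.114 and 0.0984, and that of Hoxd9 was 0.147. For Hoxd1, Hoxd10 and Hoxd11 the groups did not overlap. The groups overlapped for Hoxd12 at -0.14 (SE 0.11) and Hoxd13 at 0.00 (SE 0.11). In the HoxA cluster 9 of 10 genes were above 0, with a median of 0.19, and in the HoxB cluster 7 of 9, with a median of 0.12. No gene of either cluster passed the test, and the median over all genes was 0.0041.

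**Figure D3:**
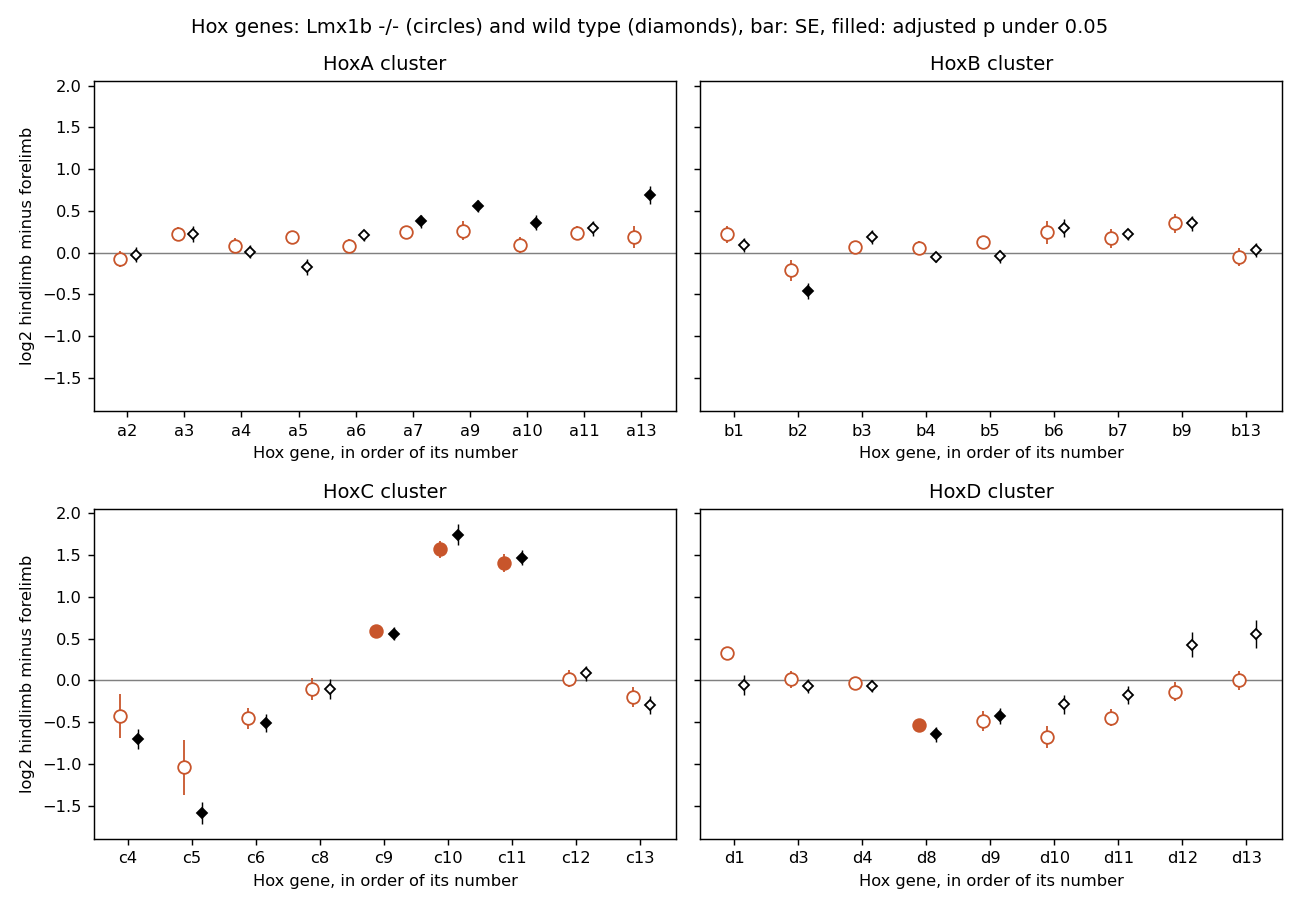
Log2 difference, hindlimb minus forelimb, of the Hox genes of each cluster in order of their number, in Lmx1b -/- (circles) and wild type (diamonds), with SE bars from 5 arrays per group; filled symbols have an adjusted p under 0.05. In Lmx1b -/- the filled circles are Hoxc9 at 0.59, Hoxc10 at 1.57, Hoxc11 at 1.40 and Hoxd8 at -0.54.

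Of the microRNA genes with the shared seed shown above, Mir196a-1 passed the test. miR-196 family members target Hox transcripts and are made from Hox clusters. Mir196a-1 was at 2.82, 3.10, 2.98, 2.85 and 2.96 in forelimbs and 3.68, 3.59, 3.55, 3.42 and 3.56 in hindlimbs, low levels on this scale with no overlap. Its difference was 0.62 (SE 0.072, limma adjusted p = 0.00157). Mir196a-2 at 0.21 (SE 0.099) and Mir196b at 0.23 (SE 0.12) did not pass (adjusted p = 0.594 and 0.657). From which gene the shared 5p product came was not measured. Hoxb9, next to Mir196a-1, differed by 0.35 (SE 0.11, limma adjusted p = 0.346).

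Sox2, a high-mobility-group factor best known from stem cells and the nervous system, stood at 4.85, 4.70, 4.38, 4.72 and 4.55 in forelimbs and 5.79, 6.10, 6.04, 6.03 and 6.26 in hindlimbs, all hindlimbs above all forelimbs. The difference was 1.41 (SE 0.10, limma adjusted p = 1.16e-05), or 2.65-fold. Foxd1, a forkhead factor, was at 4.10, 3.98, 4.12, 4.20 and 4.18 in forelimbs and 4.40, 4.96, 4.68, 4.67 and 4.997 in hindlimbs. Hindlimb 6 was the closest to the forelimbs. Foxd1 differed by 0.63 (SE 0.10, limma adjusted p = 0.0236) and was no longer called in 8 of the 10 fits that left out 1 array, keeping it without forelimb 4 or hindlimb 6 (adjusted p otherwise 0.0501 to 0.0826). Lin28b, an RNA-binding protein that holds back maturation of let-7 microRNAs and falls with embryonic age, differed by 0.57 (SE 0.10, limma adjusted p = 0.0377). It lost its call in 9 of the 10 fits, keeping it without forelimb 4 (otherwise 0.0527 to 0.0942). It was the only called member among 13 genes typical of early embryonic stages, 11 of which were above 0 (median 0.10). Of all genes, 0.0752% were called higher.

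Of 30 limb mesenchyme patterning factors, 3 were called lower in hindlimbs and none higher, against 0.145% and 0.0752% of all genes. By sign alone 15 were above 0 and 15 below, with a median over the list of -0.01. Tbx3, a T-box repressor of the limb margins and of muscle connective tissue, was at 7.19, 7.20, 7.15, 6.90 and 7.04 in forelimbs and 6.54, 6.62, 6.46, 6.42 and 6.38 in hindlimbs. The groups did not overlap, and the difference was -0.61 (SE 0.076, limma adjusted p = 0.00291). Tbx18, a T-box factor of proximal limb mesenchyme, was at 9.20, 9.04, 8.96, 9.22 and 8.98 in forelimbs and 7.60, 8.29, 8.30, 8.42 and 8.32 in hindlimbs. Hindlimb 6 stood far below the other hindlimbs. Tbx18 differed by -0.89 (SE 0.13, limma adjusted p = 0.0125). Alx1, an aristaless-like homeobox factor, was at 5.05, 5.05, 5.12, 4.97 and 4.68 in forelimbs and 4.34, 4.46, 4.41, 4.41 and 4.31 in hindlimbs, with forelimb 5 nearest the hindlimbs. It differed by -0.59 (SE 0.083, limma adjusted p = 0.00906), and it was the 1 called gene whose difference also changed with genotype. Pax1, the paired-box gene of the girdle that also changed with genotype, was at 5.19, 5.10, 5.27, 5.14 and 5.38 in forelimbs and 5.60, 5.64, 5.49, 5.49 and 5.49 in hindlimbs, a difference of 0.33 (SE 0.070, limma adjusted p = 0.0978). Tbx2, next to Tbx4 and related to Tbx3, differed by 0.28 (SE 0.098, limma adjusted p = 0.397).

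Id4, an inhibitor of basic helix-loop-helix factors, was the 1 called gene among 37 of BMP, GDF and TGF-beta signalling. It differed by -0.45 (SE 0.077, limma adjusted p = 0.0336) and was no longer called in 8 of the 10 fits that left out 1 array (0.0549 to 0.124), keeping it without forelimb 1 or hindlimb 7. Bmp4, a ligand of that pathway, differed by -0.35 (SE 0.066) with an adjusted p of 0.059. The list as a whole had 22 of 37 genes below 0 and a median of -0.05, and 0.145% of all genes were called lower.

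Of the signalling genes among the 44, those named here were lower in hindlimbs. Socs2, a suppressor of growth hormone and cytokine signalling, was at 8.19, 7.98, 8.03, 8.19 and 8.08 in forelimbs and 7.25, 7.35, 7.35, 7.17 and 7.15 in hindlimbs. The groups were far apart and even within themselves. Its difference was -0.84 (SE 0.070, limma adjusted p = 4.62e-05), or 1.79-fold, and its second probe set was also called in the same direction. Gpr50, an X-linked orphan receptor related to melatonin receptors, was at 5.24, 5.43, 5.88, 5.35 and 5.36 in forelimbs and 3.74, 4.34, 4.21, 3.82 and 3.83 in hindlimbs. Forelimb 3 was highest, and every hindlimb lay below every forelimb. It differed by -1.46 (SE 0.14, limma adjusted p = 0.000164), 2.76-fold, with -1.33 among male and -1.53 among female arrays. Rgs2, which shuts off G-protein signals, was at 7.72, 7.57, 7.36, 7.54 and 7.44 in forelimbs and 6.66, 6.92, 6.83, 6.79 and 6.83 in hindlimbs and differed by -0.72 (SE 0.077, limma adjusted p = 0.000635).

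Hhip, the secreted and membrane-bound inhibitor of hedgehog ligands, was at 6.01, 5.82, 6.04, 5.93 and 5.85 in forelimbs and 5.13, 5.48, 5.13, 5.15 and 4.68 in hindlimbs. Hindlimb 10 was the lowest, and no hindlimb reached the forelimbs. Hhip differed by -0.82 (SE 0.12, limma adjusted p = 0.00964). It was the only called gene of 13 in the hedgehog list, whose median was 0.03, while 0.145% of all genes were called lower. Shh itself differed by 0.28 (SE 0.12, limma adjusted p = 0.544), a value that was 0.00 among male arrays and 0.57 among female ones. Rdh10, the enzyme that begins retinoic acid synthesis, was the 1 called gene of 18 in the retinoic acid list. Its levels were 9.40, 9.20, 9.37, 9.28 and 9.56 in forelimbs and 8.91, 8.89, 8.92, 8.86 and 8.53 in hindlimbs, with hindlimb 10 apart at the low end. It differed by -0.54 (SE 0.090, limma adjusted p = 0.0236) and was no longer called in 5 of the 10 fits (without forelimbs 1, 3 or 5 or hindlimbs 8 or 9, 0.053 to 0.0868). Lgr5, a receptor for R-spondins that marks Wnt-responsive cells, differed by -0.75 (SE 0.12, limma adjusted p = 0.0222), a call lost without forelimbs 1, 2 or 3 or hindlimbs 8 or 10 (0.064 to 0.0805). None of 32 Wnt ligands, R-spondins and antagonists and none of 24 FGF signalling genes passed the test. Since 0.221% of all genes passed, nothing is read from the lack of a call in lists of this size. Sfrp2, a secreted Wnt modulator, came nearest of the Wnt list, at 0.57 (SE 0.12, limma adjusted p = 0.0906).

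Phex, an X-linked membrane peptidase that controls phosphate in bone, was at 7.76, 7.33, 7.87, 7.51 and 7.73 in forelimbs and 5.25, 6.28, 5.77, 5.87 and 5.70 in hindlimbs. Hindlimbs varied more than forelimbs, and none overlapped with them. Phex differed by -1.87 (SE 0.16, limma adjusted p = 5.06e-05), 3.65-fold, with -1.95 among male and -1.84 among female arrays. It was the only called gene among 11 of osteoblasts and perichondrium, against 0.145% of all genes called lower. Ibsp, the bone sialoprotein gene of the same list, differed by -0.02 (SE 0.077) with levels of 3.53 to 3.72 in forelimbs.

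Dpt, which encodes the matrix protein dermatopontin, was at 5.95, 5.78, 6.50, 5.18 and 5.87 in forelimbs and 4.92, 4.71, 4.46, 4.60 and 4.02 in hindlimbs. Forelimb 4 was close to the highest hindlimb. Dpt differed by -1.31 (SE 0.21, limma adjusted p = 0.0209), 2.49-fold, and the call was lost without forelimbs 1, 2 or 5 or hindlimbs 8, 9 or 10 (0.052 to 0.0697). Mfap5, a microfibril protein, differed by -0.94 (SE 0.15, limma adjusted p = 0.0209) and Ecm2, a matrix protein, by -0.86 (SE 0.14, limma adjusted p = 0.0209). Both lost their calls without forelimb 1 or hindlimbs 8, 9 or 10 (0.0655 to 0.0717 for Mfap5, 0.0515 to 0.0767 for Ecm2). Lrrc32, a membrane protein that docks latent TGF-beta, differed by -0.79 (SE 0.13, limma adjusted p = 0.0209), a call lost without forelimbs 1 or 2 or hindlimbs 8, 9 or 10 (0.0602 to 0.0755). In each of Mfap5, Ecm2 and Lrrc32 the highest value of all 10 arrays was that of forelimb 3. Aspn, the asporin gene next to Ecm2, differed by -0.55 (SE 0.22) with overlapping groups (adjusted p = 0.496). Of 19 fibrillar and network collagens none passed (0.221% of all genes did), 16 were below 0, and the median was -0.07.

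Layn, a hyaluronan receptor, was higher in hindlimbs by 0.56 (SE 0.096, limma adjusted p = 0.0345), and it lost its call in 8 of the 10 fits, keeping it without forelimb 1 or hindlimb 6 (otherwise 0.0584 to 0.124). Further called genes with lower values in hindlimbs were named after their values were seen. Ptgfr, the prostaglandin F receptor, differed by -0.59 (SE 0.072, limma adjusted p = 0.00264) and kept its call without any single array. Ccn4, a matricellular protein, differed by -0.52 (SE 0.094), Cdh13, a cadherin without a cytoplasmic tail, by -0.54 (SE 0.098), Ctso, which encodes cathepsin O, by -0.40 (SE 0.065), Tecrl by -0.50 (SE 0.089) and Lmod3, an actin-filament protein of muscle, by -0.45 (SE 0.082). Those 5 lost their calls in 6 to 9 of the 10 fits that left out 1 array, with adjusted p up to 0.153 for Lmod3. The arrays that kept the call when left out were forelimbs 1 and 5 and hindlimbs 6 and 7 for Ctso, forelimb 5 and hindlimb 7 for Tecrl and Cdh13, hindlimb 7 for Ccn4 and hindlimb 9 for Lmod3.

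Gabra2 and Gabra4 encode subunits of the GABA-A receptor and are separated only by Cox7b2. Gabra2 was at 3.24, 3.47, 3.41, 3.33 and 3.11 in forelimbs and 4.13, 3.94, 4.02, 3.68 and 3.94 in hindlimbs, and Gabra4 at 4.91, 4.96, 4.84, 4.71 and 4.74 in forelimbs and 5.67, 5.45, 5.31, 5.36 and 5.22 in hindlimbs. Both sets of hindlimbs lay above the forelimbs, although the levels of Gabra2 were low. The differences were 0.63 (SE 0.092, limma adjusted p = 0.0114) and 0.57 (SE 0.087, limma adjusted p = 0.0164). Other genes of the same stretch did not pass: Gabrg1 differed by 0.17 (SE 0.086), Cox7b2 by 0.09 (SE 0.097) and Gabrb1 by 0.15 (SE 0.11). Cbln1, a secreted organiser of synapses, was at 4.96, 4.83, 4.83, 5.20 and 4.77 in forelimbs and 5.55, 5.46, 5.95, 5.87 and 6.31 in hindlimbs, with hindlimb 10 the highest. It differed by 0.91 (SE 0.14, limma adjusted p = 0.0183), a call lost without forelimbs 2, 3 or 5 or hindlimbs 8 or 9 (0.0504 to 0.0673). Tafa4, a small secreted protein of sensory neurons, differed by 0.42 (SE 0.073, limma adjusted p = 0.0377) and kept its call in 1 of the 10 fits that left out 1 array, that without forelimb 5 (otherwise 0.0584 to 0.114).

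Lower in hindlimbs was Grm3, a metabotropic glutamate receptor, at 5.44, 5.18, 5.28, 5.26 and 5.01 in forelimbs and 4.29, 4.73, 4.34, 4.48 and 4.12 in hindlimbs. The groups did not overlap, and the difference was -0.85 (SE 0.11, limma adjusted p = 0.0043). Stmn2, a microtubule regulator of growing axons, was at 6.58, 6.47, 6.26, 6.73 and 6.31 in forelimbs and 5.77, 5.90, 5.60, 5.74 and 5.48 in hindlimbs and differed by -0.77 (SE 0.10, limma adjusted p = 0.00448). It was the only called gene among 16 of neurons and axons, 10 of which were above 0 (median 0.04). Of all genes, 0.145% were called lower. Gria2, an AMPA receptor subunit, differed by -0.67 (SE 0.12, limma adjusted p = 0.0407) and was no longer called in 7 of the 10 fits (0.0724 to 0.144), keeping it without forelimb 5 or hindlimbs 6 or 7. Sst, C1ql3 and Cbln4 were named after their values were seen. Sst, which encodes the peptide somatostatin, differed by -0.57 (SE 0.081, limma adjusted p = 0.00921) and kept its call without any single array. C1ql3, a secreted C1q-like protein, differed by -0.61 (SE 0.098, limma adjusted p = 0.0209), a call lost without forelimbs 1 or 2 or hindlimbs 8, 9 or 10 (0.0524 to 0.0767). Cbln4, a relative of Cbln1 that moved the opposite way, differed by -0.57 (SE 0.093, limma adjusted p = 0.0234), a call lost without forelimbs 2, 3 or 5 or hindlimbs 8, 9 or 10 (0.0504 to 0.0903).

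Skeletal muscle, a tissue that whole limbs contain, was followed with 37 measured genes. None passed the test, yet 35 of the 37 lay below 0, against 48.4% of all genes, with a median of -0.31. The mean log2 level of the list was 7.04, 6.89, 7.04, 6.70 and 6.84 in forelimbs 1 to 5 and 6.47, 6.79, 6.49, 6.60 and 6.66 in hindlimbs 6 to 10. Only forelimb 4 lay within the range of the hindlimbs. Myl1, a myosin light chain, came nearest to a call at -0.45 (SE 0.092, limma adjusted p = 0.0978), and Myh8, a developmental myosin heavy chain, had the largest difference of the list at -0.74 (SE 0.16). With the mean of this list as a covariate, 9 of the 44 genes kept their calls: Pitx1, Tbx4, Isl1, Tbx5, Hoxc10, Hoxc11, Sox2, Socs2 and Phex. The covariate itself differs between the groups. In that fit Lgr5 differed by -0.39 (adjusted p = 1), Lrrc32 by -0.42 (adjusted p = 1) and Lmod3 by -0.25 (adjusted p = 1), each moved by over 1.5 times, as did C1ql3, Cdh13 and Tecrl. Dpt differed by -0.92 (adjusted p = 1), Mfap5 by -0.66 (adjusted p = 1), Tbx3 by -0.46 (adjusted p = 0.822), Gpr50 by -1.22 (adjusted p = 0.112) and Hoxc9 by 0.61 (adjusted p = 0.0766). Which part of a difference goes with muscle was not tested further.

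Lists of other cell types were examined in the same way, and in most of them no gene passed. Of 18 macrophage and leukocyte genes 17 lay below 0 (median -0.13), and of 17 tendon and ligament genes 13 did (median -0.15), where Col14a1, a collagen of tendon and fascia, differed by -1.02 (SE 0.23, limma adjusted p = 0.114). Of 18 endothelial genes 14 were below 0 (median -0.08). Of 7 erythroid genes 6 were above 0, with a median of 0.31, and Alas2, the first enzyme of haem synthesis in red cells, differed by 0.47 (SE 0.21) with overlapping groups. Forelimb 5 had the lowest mean of the erythroid list, at 6.67. The other forelimbs, at 7.28 to 7.41, lay within the hindlimb range of 7.22 to 7.79. Of 20 cartilage genes 15 were above 0 (median 0.08). All 21 cell cycle genes lay above 0 in hindlimbs, none called and with a median of 0.08, against 10289 of all 19936 genes. The array means of the cell cycle list overlapped between the groups. Lmx1b -/- forelimb 4, at 8.62, lay above the Lmx1b -/- hindlimb range of 8.42 to 8.59. Forelimbs 1 and 2, at 8.46 and 8.50, lay within that range, and forelimbs 3 and 5, at 8.39 and 8.27, below it. Of 18 genes of epidermis and the apical ridge 13 were below 0 (median -0.14), and Krt15, a basal keratin, differed by -0.91 (SE 0.23, limma adjusted p = 0.178). In 24 of the 35 lists no gene passed the test, where 0.221% of all genes did. Whether these lists take part in the differences of other genes was not tested.

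**Figure D4:**
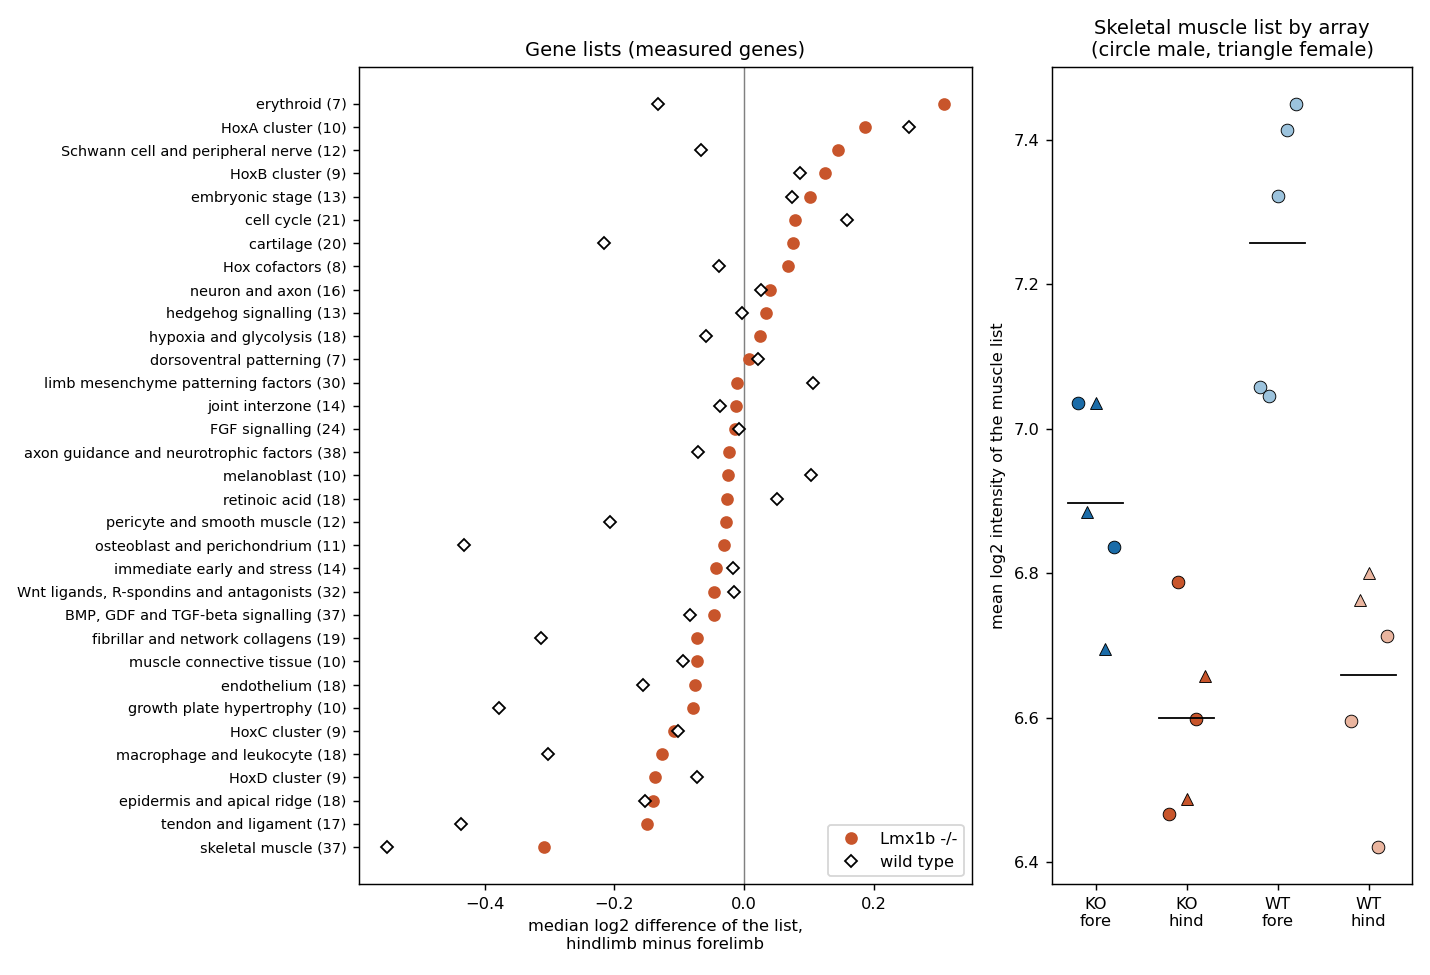
Left, median log2 difference, hindlimb minus forelimb, of each gene list (number of measured genes in brackets) in Lmx1b -/- (circles) and wild type (diamonds); the small limb-type identity and sex-linked lists are not drawn. Right, mean log2 intensity of the muscle list on every array (circle male, triangle female; line, mean of 5 arrays). The muscle list has the lowest median in both genotypes, at -0.31 in Lmx1b -/- and -0.55 in wild type.

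The same comparison in wild-type limbs, which shares no array with it, called 630 genes (3.16%), 128 higher (0.642%) and 502 lower (2.52%) in hindlimbs. Wild-type hindlimbs and forelimbs did not overlap for 4.98% of all genes. All 44 genes called without Lmx1b had the same sign in wild type, against 67.3% of all genes, and 35 of them were called there. That is 79.5% of the Lmx1b -/- genes and 5.56% of the wild-type ones. In the other direction, 601 of the 630 wild-type genes (95.4%) had the same sign in the mutants. The 9 called only without Lmx1b were Hhip, Sst, Rdh10, Ctso, Gabra2, Gabra4, Layn, Lin28b and Tafa4, but a call in 1 genotype alone does not show that the differences differ. In wild type these were -0.51 for Hhip, -0.38 for Sst, -0.26 for Rdh10, -0.15 for Ctso, 0.26 for Gabra2, 0.20 for Gabra4, 0.32 for Layn, 0.40 for Lin28b and 0.12 for Tafa4. The difference between genotypes was called for none of the 9. It was 0.37 (95% interval 0.04 to 0.71) for Gabra2, 0.37 (95% interval 0.10 to 0.64) for Gabra4 and -0.31 (95% interval -0.74 to 0.12) for Hhip.

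The muscle list was 1 of several lists whose counts of calls stood far apart between genotypes. In wild type 31 of its 37 genes were called lower in hindlimbs, with a median of -0.55, against 0 and -0.31 without Lmx1b. Over all genes 2.52% were called lower in wild type and 0.145% without Lmx1b. The difference between genotypes was called for none of the 37, with a median of 0.25. Across all 19936 genes the differences of both genotypes had a Pearson correlation of 0.58, given as a description because genes are not independent. The median SE was 0.0854 without Lmx1b and 0.0778 in wild type.

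Whether the limb-type difference changed with genotype was tested over all 20 arrays. Of 19936 genes 4 passed (0.0201%), all with a larger value, hindlimb minus forelimb, without Lmx1b, and 724 had an unadjusted p under 0.05. Alx1 was 6.52, 6.04, 6.36, 6.18 and 6.14 in wild-type forelimbs and 4.94, 4.81, 4.74, 5.02 and 4.65 in wild-type hindlimbs, a difference of -1.42 (SE 0.096, adjusted p = 3.56e-06). In Lmx1b -/- the forelimbs were nearer to the hindlimbs, at a difference of -0.59. The change between genotypes was 0.83 (95% interval 0.56 to 1.10), with a limma adjusted p of 0.0196. Alx1 lost this call without wild-type forelimb 3, wild-type hindlimbs 7, 8 or 10 or Lmx1b -/- hindlimb 7 (adjusted p 0.0564 to 0.0638).

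Grm7, a metabotropic glutamate receptor, was at 4.51, 4.40, 4.50, 4.89 and 4.67 in wild-type forelimbs and 3.83, 3.80, 3.75, 3.74 and 3.89 in wild-type hindlimbs, with 3.68, 3.70, 3.65, 3.77 and 3.63 in forelimbs and 3.57, 3.71, 3.85, 3.52 and 3.89 in hindlimbs without Lmx1b. Only the wild-type forelimbs stood apart. The limb-type difference was -0.79 (SE 0.085) in wild type and 0.02 (SE 0.080) in Lmx1b -/-, a change of 0.81 (95% interval 0.57 to 1.06). The adjusted p was 0.0138, and the call was kept without any single array. Cntn1, a neural adhesion molecule, was at 4.51, 4.83, 4.96, 4.70 and 4.77 in wild-type forelimbs and 3.82, 4.08, 4.17, 4.11 and 4.13 in wild-type hindlimbs, and ran from 3.67 to 4.07 in mutant forelimbs and 3.77 to 4.22 in mutant hindlimbs. Its limb-type difference was -0.69 (SE 0.089) in wild type and 0.13 (SE 0.10) in the mutants. Its change was 0.82 (95% interval 0.53 to 1.12) with an adjusted p of 0.0435, and the call was lost in 15 of the 20 fits that left out 1 array (0.0564 to 0.131). It was kept without wild-type forelimb 1, mutant forelimbs 3 or 4 or mutant hindlimbs 8 or 9. Pax1 had the opposite signs, -0.33 (SE 0.081, adjusted p = 0.0408) in wild type and 0.33 without Lmx1b, a change of 0.66 (95% interval 0.44 to 0.88) with an adjusted p of 0.0196. Its call was lost without wild-type forelimbs 3, 4 or 5, wild-type hindlimbs 7, 8 or 10, mutant forelimb 2 or mutant hindlimb 7 (0.0527 to 0.0657).

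All 5 wild-type forelimbs were male, so in this test sex was not balanced. Among male arrays alone the change was 0.72 for Grm7, 0.92 for Alx1, 0.60 for Pax1 and 0.98 for Cntn1, but no gene passed there, where the mutants had 2 forelimbs and 3 hindlimbs. After quantile normalization the changes were 0.79, 0.79, 0.63 and 0.82, with adjusted p from 0.0551 to 0.0756, and 0.72, 0.87, 0.60 and 0.76 when the muscle list was a covariate, with adjusted p from 0.131 to 0.274. The fifth smallest p was that of Galnt13, a glycosyltransferase, with a change of 0.66 (95% interval 0.41 to 0.92) and an adjusted p of 0.0807. Some genes that were far apart in wild-type limbs only, chosen after their values were seen, did not pass either. Grem1, a BMP antagonist, had -0.94 (SE 0.071) in wild type and -0.12 (SE 0.13) without Lmx1b (adjusted p of the change 0.0807). Thbs4, a tendon matrix gene, had -1.60 (SE 0.15) and -0.35 (SE 0.16) (0.0807), and Ibsp -2.20 (SE 0.42) and -0.02 (SE 0.077) (0.34).

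**Figure D5:**
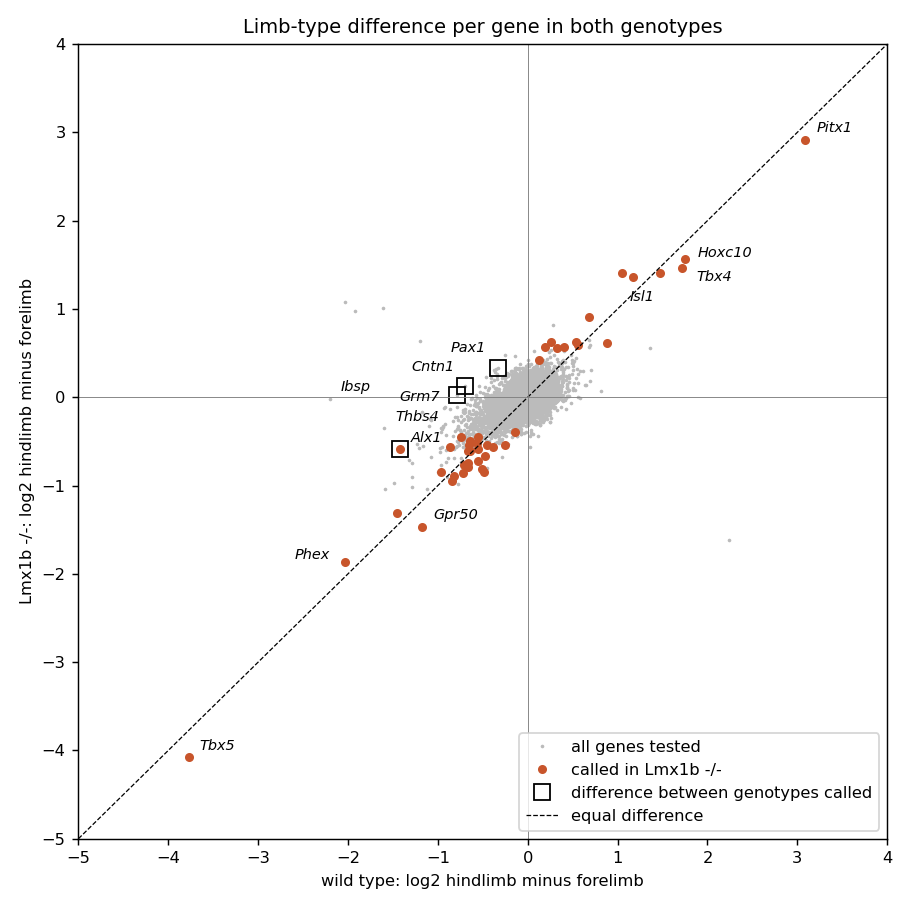
Log2 difference, hindlimb minus forelimb, of each gene in wild type (x axis) and in Lmx1b -/- (y axis); red, the 44 genes called without Lmx1b; squares, the 4 genes whose difference changed with genotype; dashed line, equal differences. The red points lie on 1 side of 0 in both genotypes, Alx1 lies above the line at -1.42 and -0.59, and the 5 unlabelled grey points far from the line with opposite signs are sex-linked genes and Xist.

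Of the 44 called genes, 4 had a called gene as a nearest measured neighbour, while 0.221% of all genes were called. These 4 made 2 adjacent pairs, Hoxc10 with Hoxc11 and Tbx3 with Tbx5. Neighbours were taken from RefSeq's order of genes on GRCm38.p6. Tbx3 and Tbx5 were both lower in hindlimbs, by 1.53-fold and 16.9-fold, while Rbm19 on the other side of Tbx5 differed by 0.01 (SE 0.099). Macroh2a1, beside Pitx1, differed by 0.06 (SE 0.071). Of 82 neighbours that were not called, 11 (13.4%) had an unadjusted p under 0.05, against 8.51% of all genes.

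Single arrays carried weight in this small design. Of the 44 genes, 23 kept their calls in each of the 10 fits that left out 1 array and 21 lost them in 1 to 9 of these fits. The 23 were Tbx5, Pitx1, Isl1, Hoxc10, Sox2, Hoxc11, Tbx4, Socs2, Phex, Gpr50, Hoxc9, Rgs2, Mir196a-1, Ptgfr, Tbx3, Grm3, Stmn2, Alx1, Sst, Hhip, Gabra2, Tbx18 and Gabra4. The number of called genes was 23 without hindlimb 8, 26 without hindlimb 10, 28 without hindlimb 9 and 29 without forelimb 1, the 4 fits in which it moved by over 1.5 times. Without both of the arrays farthest from their group means it was 39, a setting chosen after the data were seen.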

How the data were processed

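Whole-limb RNA of 20 limbs was measured on Affymetrix ST arrays. The authors deposited 1 linear intensity per probe set and array, normalized with RMA per the submitters' processing notes. Its software version, annotation and build were not given in the sources used here. The number of arrays limits the precision.

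Of 35512 probe sets, 1 was empty, 21789 had 1 gene symbol, 1621 had several and 12101 had none. Each of 19936 genes was read from 1 probe set, that of highest mean on the 10 Lmx1b -/- arrays. Deposited intensities were turned to log2 and tested with limma 3.58.1 (R 4.3.3; lmFit and eBayes), with Benjamini-Hochberg adjustment over all genes and a threshold of 0.05. Both hindlimb comparisons used their own 10 arrays, and the difference between genotypes used all 20. On simulated data with 19936 genes, 52.24%, 94.03% and 100% of changes of 0.4, 0.8 and 1.6 on the log2 scale were recovered in the Lmx1b -/- comparison, and 4.094% of its calls were unchanged genes. For the difference between genotypes these were 29.85%, 88.06% and 100%, with 7.051%. The simulated noise was normal and independent between genes, with 1 spread per gene over all groups. In the Lmx1b -/- comparison 171 genes were called on the simulated data, against 44 on the arrays. Whether the simulated rates hold for the arrays was not tested.

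The members, the 35 gene lists and the tests were chosen with earlier results of these data known. Named genes were Lmx1b, the limb-type factors, called Hox genes, the 15 called genes with the largest difference in each direction, the 5 smallest p for the difference between genotypes, and up to 4 called or 2 uncalled members of each list described. Neighbouring genes, uncalled Hox genes and uncalled genes of a pathway with a called member were chosen after their values were seen. Of 604 list entries, 37 had no probe set. The sex of each limb was read from Y-linked genes (mean level at least 6.99 in males and at most 2.71 in females) and Xist. The replicate numbers, within left and right limbs, were not used to pair the samples, and whether same-numbered limbs share an embryo is not stated. Deviations of same-numbered Lmx1b -/- limbs correlated from -0.23 to 0.23 over 5 pairs, 2 of them over 0.1. Of the 5 pairs 3 were of different sex. For the other pairs these few correlations cannot decide whether the limbs were paired. The alternatives changed thresholds, probe set choice, normalization, filters, weights, covariates, blocks and the arrays used. Scripts used Python 3.11.15, numpy 2.4.6, pandas 2.3.3 and matplotlib 3.10.9.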

Additional observations from a re-analysis of the deposited data

Results flagged for a closer look

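In 7 of 98 groups of 5 arrays, 1 array lay far from the other 4 by Dixon's test, which covered only part of the genes named above. Chance gives about 1 in 20 such groups. Hindlimb 6 without Lmx1b was low for Pitx1 (8.222, the others 8.47 to 8.51), for Tbx4 (7.275, the others 7.71 to 7.80) and for Tbx18 (7.605, the others 8.29 to 8.42). Hindlimb 7 was high for Id4 (7.158, the others 7.004 to 7.038), and hindlimb 10 was low for Rdh10 (8.528, the others 8.86 to 8.92). Forelimb 3 was low for Tafa4 (3.969, the others 4.20 to 4.27), and forelimb 5 was low for Tecrl (5.046, the others 5.37 to 5.49). Pitx1, Tbx4 and Tbx18 kept their calls without hindlimb 6.

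For 4 genes the limb-type difference itself differed between genotypes in the test over all 20 arrays. The difference without Lmx1b minus that in wild type was 0.811806 for Grm7, 0.831168 for Alx1, 0.664112 for Pax1 and 0.821765 for Cntn1.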

How the results depend on the processing

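Over 197 single-gene values, 5352 alternative values kept direction and side of the threshold, 367 lost the call, 68 gained one and 0 changed sign with a call. The count of 44 became 20 at an adjusted p under 0.01, 123 with all 20 arrays in 1 fit, 69 with an intensity trend, 116 with array weights, 70 with side as a covariate, 9 with the muscle list as a covariate, 7 in male and 8 in female arrays alone, and 19 over all 35511 probe sets, a setting added after the data were seen. It stayed within 1.5 times in 11 of 21 such settings. Without 1 array it was 23 to 54. With the replicate block by side and number it was 27, 24 of them among the 44, and with the replicate block by number alone 31. The labels do not state that the numbers pair the samples. With Y-linked expression as a covariate 34 of the 44 kept their calls.

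The wild-type count of 630 became 170 at an adjusted p under 0.01, 159 at 1.5-fold or more, 998 with array weights, 7 with the muscle covariate and 297 to 926 without 1 array, with 721 under the replicate block by side and number. The count of 4 for the difference between genotypes became 0 at an adjusted p under 0.01, after quantile normalization, in male arrays, with the replicate block by side and number and with the muscle covariate, against 724 genes at an unadjusted p under 0.05 in limma; it was 2 at a mean level of at least 5 and under the replicate block by number alone, 9 with array weights and 1 to 10 without 1 array. Female arrays alone could not give it, since all wild-type forelimbs were male. The causes of these shifts were not tested. For 14 of the 44 genes the mean log2 level was under 5, and how near they lay to background was not tested.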

Other observations

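Several tissue lists had other medians in wild-type than in Lmx1b -/- limbs, with no call for the difference between genotypes in any of them. Over all genes 0.145% were called lower without Lmx1b and 2.52% in wild type, so counts of calls are higher in wild type in general. Of 20 cartilage genes 15 were above 0 in hindlimbs without Lmx1b (median 0.08) and 15 below 0 in wild type (median -0.22). Of 11 osteoblast and perichondrium genes 1 was called lower without Lmx1b (median -0.03) and 8 in wild type (median -0.43). Of 17 tendon and ligament genes none was called without Lmx1b (median -0.15) and 7 were called lower in wild type (median -0.44), and of 19 collagens none (median -0.07) and 7 (median -0.31). The 10 measured genes of growth plate hypertrophy had 0 calls without Lmx1b (median -0.08) and 6 lower in wild type. Macrophage and leukocyte genes were below 0 for 17 of 18 genes without Lmx1b and for all 18 in wild type, where 5 were called lower.

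No gene was called without Lmx1b in the next 3 lists, where 0.221% of all genes were called. Of 12 Schwann cell and peripheral nerve genes 8 were above 0 in Lmx1b -/- hindlimbs (median 0.14). Of 38 axon guidance and neurotrophic genes 15 were above 0 (median -0.02), and of 14 joint interzone genes 7 (median -0.01).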
